A study of Mus musculus with 4 samples.

Results

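The nuclear factor I genes Nfia, Nfib, Nfic and Nfix were examined in SOX2 ChIP-seq of the mouse cortex, an assay that sequences the chromatin an antibody recovers together with its target protein. The members were the peaks whose centre lay inside the RefSeq span of 1 of the 4 genes or within 50 kb of it, on the mm10 build. The pull-down was made with a rabbit polyclonal anti-SOX2 antibody from cortex of wild-type male C57BL/6 mice aged 2 months, in 3 immunoprecipitated (IP) libraries, and 1 input library of unselected cortex DNA with the same age, sex and strain served as the control. The input enters here through the values the authors gave for each peak. A label field also names SOX2 as transduced in every sample, the input included, which does not match wild-type tissue. Nothing in the labels says that the IP libraries came from separate animals, and their spread may be only technical. Around the 4 genes lay 60, 55 and 44 peaks of IP libraries 1, 2 and 3, of 17730, 17628 and 15891 in all. Peaks of different libraries that overlapped were merged, which gave 86 regions around the Nfi genes of 27080 in the genome.

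NFI proteins are transcription factors that bind DNA as dimers at a palindromic site. In the embryonic nervous system Nfia and Nfib promote the onset of gliogenesis, the step at which neural progenitors begin to make glia, and SOX9, a relative of SOX2, induces Nfia at that step. Nfix acts in neural progenitors and in the quiescence of neural stem cells, and Nfic is best known in mice for its part in tooth root formation. SOX2 is a transcription factor of neural stem cells that astrocytes also make. The cortex is a mixture of cell types, and a strong signal in few cells cannot be told apart here from a weak signal in many.

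The sequences that follow show where a SOX2 region did and did not meet a transcription start listed by RefSeq. Each holds the 250 bases before a start (RefSeq, GRCm38.p6, the coordinates of mm10), written 5′ to 3′, with the bases under a peak of at least 1 IP library in capitals. The first is the Nfix start that carries a region of all 3 libraries (chr8:84780083-84780332, minus strand). The second is the listed Nfia start, which carries none (chr4:97581693-97581942, plus strand). The third is the start of Dohh (chr10:81384184-81384433, plus strand). Dohh is a neighbour that lies nearer than Nfic to the strongest region of the Nfic window.
Nfix: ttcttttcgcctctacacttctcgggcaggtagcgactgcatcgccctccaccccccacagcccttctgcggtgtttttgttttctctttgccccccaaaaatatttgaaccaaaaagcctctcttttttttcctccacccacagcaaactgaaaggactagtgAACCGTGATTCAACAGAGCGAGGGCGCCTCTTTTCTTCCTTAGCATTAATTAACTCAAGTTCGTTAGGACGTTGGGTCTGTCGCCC
Nfia: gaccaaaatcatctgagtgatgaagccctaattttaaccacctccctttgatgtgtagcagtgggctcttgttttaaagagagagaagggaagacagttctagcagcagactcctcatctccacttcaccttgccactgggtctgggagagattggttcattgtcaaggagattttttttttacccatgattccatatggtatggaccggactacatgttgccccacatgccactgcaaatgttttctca
Dohh: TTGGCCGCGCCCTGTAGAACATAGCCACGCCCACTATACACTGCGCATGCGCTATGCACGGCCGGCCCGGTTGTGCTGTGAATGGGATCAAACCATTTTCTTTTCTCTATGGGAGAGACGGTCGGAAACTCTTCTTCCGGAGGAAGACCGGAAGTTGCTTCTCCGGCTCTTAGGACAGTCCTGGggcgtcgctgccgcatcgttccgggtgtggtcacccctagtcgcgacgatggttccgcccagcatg

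In the Nfix sequence the peaks covered the 86 bases next to the start, and in the Dohh sequence they covered 184 of the 250 bases. Both strands were searched for the SOX core sequences ACAATG and ACAAAG, for the NFI arm TTGGC and for the full palindrome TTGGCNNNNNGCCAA, which contains the arm. The 86 Nfix bases under the peaks held none of the 4, and neither did the rest of the 250 bases. The Nfix region continues past the start, down to 84779947, and the Dohh region begins before its sequence, at 81384174. The parts of both regions outside these sequences were not searched. The Nfia sequence, with no peak, held ACAATG on the reverse strand, starting 92 bases before the start, and neither the other SOX core nor an NFI letter match. The Dohh sequence held 1 NFI arm, at its first base and under a peak, and no SOX core. Of 32851 RefSeq start sequences of this length, 10.7% held ACAATG, 16.5% held ACAAAG, 41.5% held TTGGC and 0.0365% held the full palindrome. A match is a description of letters only.

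The SOX2 pull-down was enriched at all 4 Nfi genes in every IP library. Each of the 4 had at least 1 region that held peaks of all 3 IP libraries within 50 kb, as did 46.6% of 21627 protein-coding genes. Such regions numbered 11 around Nfia, 6 around Nfib, 3 around Nfic and 6 around Nfix. A region of all 3 libraries lay inside the gene span of all 4 genes, against 14.8% of protein-coding genes. All 4 were also the nearest protein-coding gene to at least 1 such region, against 22.9%, and 71.8% of protein-coding genes had a peak of at least 1 library within 50 kb. The counts of members were not tested, since the genes were chosen with earlier results of these data known.

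Long genes have long windows, and the Nfi windows differed in length, from 640.8 kb for Nfia, 316.6 kb for Nfib and 196.5 kb for Nfix down to 135.7 kb for Nfic, against a median of 117.3 kb over all protein-coding genes. With 11 regions, Nfia was among the 0.0509% of protein-coding genes with 11 or more. Of the 196 genes with a window at least as long as that of Nfia, itself included, 6 had at least as many regions. The 6 regions of Nfib and of Nfix placed each among the 0.837% with 6 or more, and the 3 of Nfic among the 8.98% with 3 or more. Of the genes with windows at least as long, 73 of 893 had at least as many regions as Nfib. The same held for 107 of 2532 with Nfix and for 913 of 6571 with Nfic. Per 100 kb of window, Nfix had the most, with 3.05 regions, followed by Nfic with 2.21, Nfib with 1.90 and Nfia with 1.72. Of the 3 Nfic regions, 2 lay nearer to another protein-coding gene, as did 1 of the 6 Nfix regions. Without these, Nfix had 2.54 regions per 100 kb, Nfib 1.90, Nfia 1.72 and Nfic 0.737, so that Nfic came last. With every region of each window counted, the value over the windows of all protein-coding genes together was 0.570, and the median gene had 0. A value for nearest regions only is not given, so the densities without the regions nearer to another gene are not set against 0.570. A density as high as that of Nfix was reached by 1.93% of protein-coding genes, as high as that of Nfic by 5.61%, of Nfib by 8.45% and of Nfia by 12.1%, all with every region of a window counted.

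**Figure D1:**
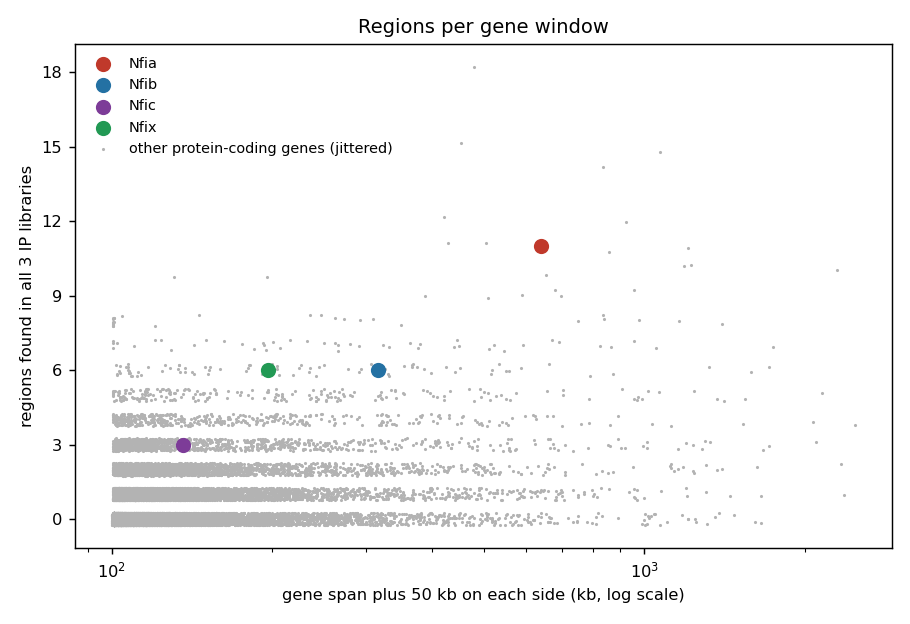
Number of regions found in all 3 IP libraries (vertical axis) against the length of the gene span plus 50 kb on each side (horizontal axis, kb, log scale) for the 4 Nfi genes, as large coloured points, and every other protein-coding gene, as small grey points moved slightly up or down so that they can be seen apart. Nfia, with 11 regions in 640.8 kb, lies near the upper edge, Nfib and Nfix at 6, and Nfic at 3.

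Of the 86 regions, 26 were found in all 3 libraries (30.2%), 21 in 2 and 39 in 1. Over the whole genome 34.5% of merged regions held peaks of all 3 libraries, a larger share than around the Nfi genes. Strength is given in normalized tags, the authors' count of sequenced tags in a peak scaled to a library of 10000000 tags. The 26 regions had a median of 8.69 normalized tags (mean over 3 libraries first) and a range of 4.61 to 21.2, against a median of 7.63 over all 9333 regions of all 3 libraries. Of the 26, 15 were above that median and 3 were in the strongest 10% of all regions: 1 each at Nfia, Nfib and Nfix. The authors' enrichment over the input, averaged over libraries, had a median of 16.2-fold over the 26 regions, against 15.3-fold over all regions, and ran from 5.34-fold to 134-fold. IP library 3 had the lowest value of the 3 in 17 of the 26 regions, against 60.1% of all regions.

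**Figure D2:**
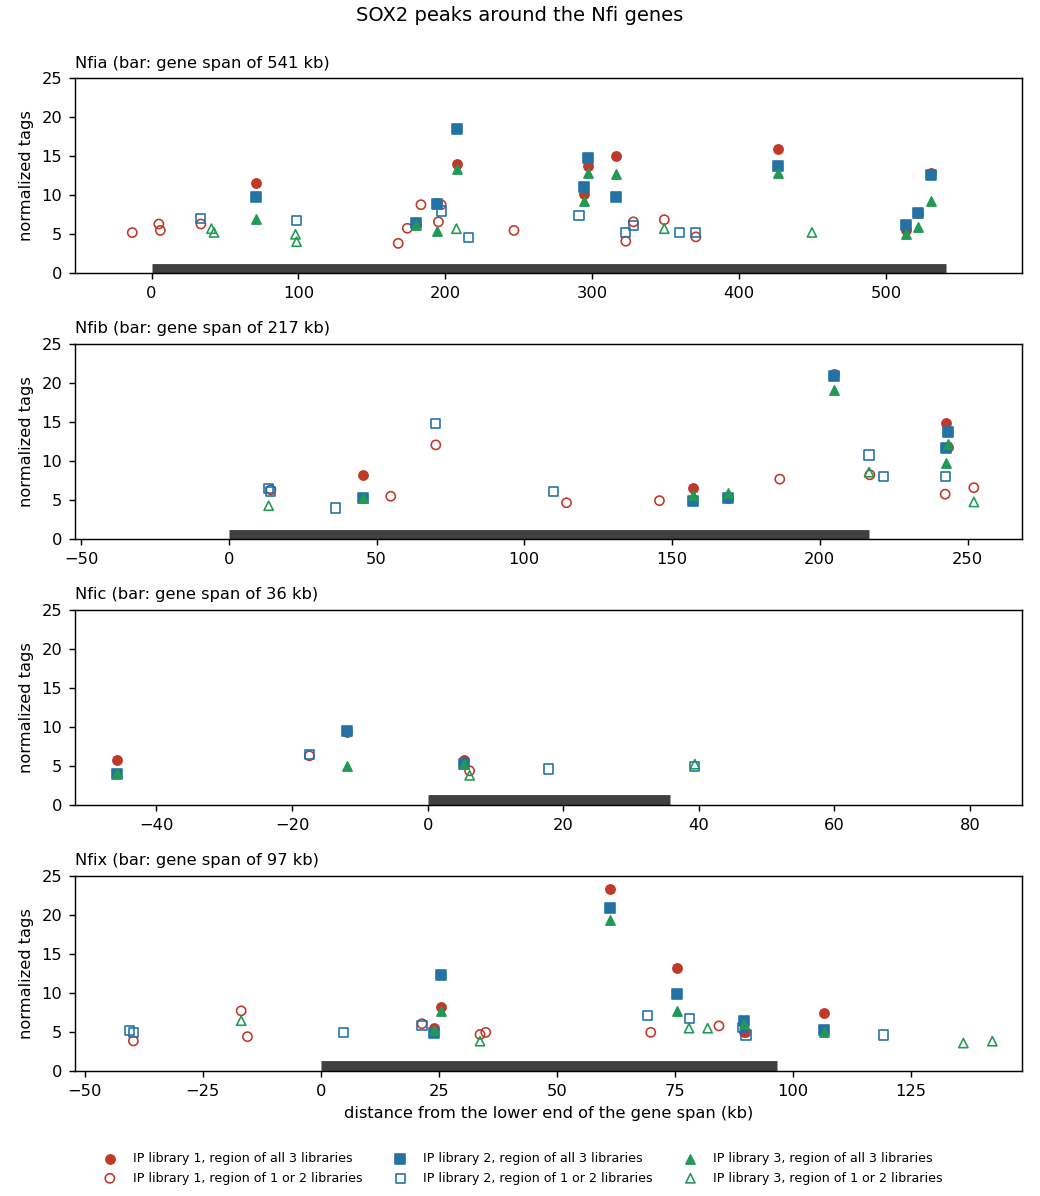
Normalized tags of every peak (vertical axis) against its region's distance from the lower end of the gene span (horizontal axis, kb) in the 4 windows, with the gene span as a dark bar. Filled symbols are regions found in all 3 IP libraries and open symbols regions of 1 or 2 libraries. The filled symbols lie inside the span throughout for Nfia, and the highest ones at Nfib and Nfix stand at about 20 normalized tags.

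Nfia, which helps to start gliogenesis, lies on chromosome 4 from 97578066 to 98118876, and all 11 of its regions lay inside the gene. No other protein-coding gene lay in its window. The gene table used here gives no exons, so a position inside a gene is not divided into exon and intron. The strongest region, from 97786041 to 97786202, held 14.0, 18.5 and 13.4 normalized tags in IP libraries 1, 2 and 3, and averaged 15.3 ± 2.79 (SD, n = 3). It was enriched 23.1-fold, 30.4-fold and 22.0-fold over the input. It lay 208 kb from the lower end of the gene and ranked 885 of 9333 regions. The second, from 98004366 to 98004556, held 16.0, 13.8 and 12.9 normalized tags (mean 14.2 ± 1.59). IP library 1 was the highest at the second region and IP library 2 at the strongest, and the values of both regions overlap, so their order is not fixed by these libraries.

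A pair of Nfia regions lay 2.77 kb apart near the middle of the gene. The stronger, from 97874929 to 97875136, held 13.8, 14.8 and 12.9 normalized tags (mean 13.8 ± 0.950), and its neighbour from 97872176 to 97872356 held 10.2, 11.1 and 9.31 (mean 10.2 ± 0.895). The groups of 3 values of this pair did not overlap, and both were highest in IP library 2 and lowest in IP library 3. Further along, the region from 97893965 to 97894153 held 15.1, 9.85 and 12.7 (mean 12.6 ± 2.63), with IP library 2 the lowest. Close to the upper end of Nfia, 9.97 kb inside it, the region from 98108812 to 98109009 held 12.9, 12.6 and 9.31 normalized tags (mean 11.6 ± 1.99).

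The other 5 Nfia regions had means of 5.56 to 9.46 normalized tags. That from 97649280 to 97649535 held 11.6, 9.85 and 6.93 and was the nearest to the RefSeq start of Nfia at 97581943, at a distance of 67.5 kb. IP library 1 alone had peaks close to that start, the nearest of 6.33 normalized tags at 1.12 kb. The region from 97758228 to 97758580 held almost equal values of 6.33, 6.46 and 6.21, yet its peaks were linked in a chain and no base was common to all 3. The 3 libraries were enriched 10.4-fold, 5.32-fold and 40.9-fold against 2.0, 3.9 and 0.5 input tags, so the highest fold depends on the authors' floor of 0.5 tags for the input. That region and the one from 97772262 to 97772522 also lay inside the long noncoding RNA gene Gm38709.

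Nfib, the close partner of Nfia in gliogenesis, lies on chromosome 4 from 82290173 to 82506751 and likewise had no other protein-coding gene in its window. Of its 6 regions, 4 lay inside the gene and 2 beyond the upper end. The strongest, from 82494934 to 82495096 and 11.7 kb inside the upper end, held 21.2, 20.9 and 19.1 normalized tags (mean 20.4 ± 1.14). It ranked 341 of 9333, within the strongest 3.65%. Its enrichment was the highest of the 26 regions, with 140-fold, 138-fold and 126-fold, but the input was at the same floor of 0.5 tags in all 3 comparisons, and the fold depends on that floor. From 77, 68 and 80 tags, the 95% Poisson intervals of the value in the 3 libraries were 16.7 to 26.5, 16.3 to 26.5 and 15.1 to 23.8 normalized tags, which cover counting error only. The 3 intervals overlap. The region also lay inside the noncoding RNA gene 2310067E19Rik.

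Beyond the upper end of Nfib a pair of regions lay 0.530 kb apart, at 26.2 and 26.8 kb from the gene. The region from 82532890 to 82533066 held 14.9, 11.7 and 9.79 normalized tags (mean 12.1 ± 2.58), and that from 82533415 to 82533601 held 11.8, 13.8 and 12.2 (mean 12.6 ± 1.06). Their values overlap. Nfib was the nearest protein-coding gene, but both lay inside the long noncoding RNA gene Gm11266, which is nearer. The remaining regions, inside Nfib, held 5.48 to 6.25 normalized tags on average, below the median of all regions of all 3 libraries.

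At the upper end of the Nfib span itself, each library had a peak, but not at the same place. IP libraries 2 and 3 held 10.8 and 8.60 normalized tags at a region centred 0.0890 kb outside the gene, and IP library 1 held 8.26 at a peak centred 0.366 kb outside it, which did not overlap theirs. This end of the span therefore does not count among the regions of all 3 libraries. No start was listed here for Nfib, so whether this end is its promoter was not tested. A region inside Nfib, from 82360150 to 82360317, held 12.1 and 14.8 normalized tags in IP libraries 1 and 2 and had no peak in IP library 3. It was the strongest of the 60 Nfi regions that 1 or 2 libraries lacked, and was chosen for mention after its values were seen.

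Nfix, which acts in neural progenitors, lies on chromosome 8 from 84704712 to 84801238 and held the strongest of all Nfi regions. This region, from 84765830 to 84766000 inside the gene, held 23.4, 20.9 and 19.3 normalized tags (mean 21.2 ± 2.07) and ranked 304 of 9333, within the strongest 3.26%. It rested on 85, 68 and 81 tags, and the 95% Poisson intervals of the 3 libraries overlap and reach from 15.4 to 28.9 normalized tags. The 3 libraries were enriched 25.7-fold, 23.0-fold and 21.2-fold there. The input held 3.0 tags in each comparison, above the floor. This region lay 6.96 kb from the nearest of the 4 starts listed here for Nfix, at 84772875. The gene span reaches upstream of all 4, so a further start may be missing from that list.

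The Nfix region whose sequence stands above, from 84779947 to 84780168, was centred 0.0245 kb from the Nfix start at 84780082. It was the only region of all 3 libraries that overlapped a RefSeq start window of an Nfi gene, in a table with starts for Nfia, Nfic and Nfix. It held 13.2, 9.85 and 7.64 normalized tags (mean 10.2 ± 2.80), with IP library 1 the highest and IP library 3 the lowest. Enrichment was 87.0-fold, 32.4-fold and 50.3-fold. The input was at its floor in the comparisons of IP libraries 1 and 3, so those folds depend on it. The other 3 listed Nfix starts had no peak of any library in their windows. The nearest peak to one of them, of 7.08 normalized tags in IP library 2 alone, lay 0.484 kb from the start at 84773410.

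A pair of regions in the lower part of Nfix lay 1.64 kb apart. That from 84730142 to 84730342 held 8.26, 12.3 and 7.64 normalized tags (mean 9.40 ± 2.53), with IP library 2 well above the others, and that from 84728517 to 84728687 held 5.51, 4.92 and 5.25 (mean 5.23 ± 0.296). The region from 84794279 to 84794451, near the upper end, held 4.95, 6.46 and 5.97. Outside the gene, the region from 84811107 to 84811269 held 7.43, 5.23 and 5.01 normalized tags and lay 9.95 kb from Nfix, but 4.22 kb from Dand5, an inhibitor of Nodal signalling, which is nearer.

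Nfic, on chromosome 10 from 81396191 to 81431919, had the lowest median, 5.42 normalized tags over its regions, and of its 3 regions only 1 lay inside the gene or nearer to Nfic than to another protein-coding gene. This region, from 81401504 to 81401684, held 5.78, 5.23 and 5.25 normalized tags (mean 5.42 ± 0.312) and 6.35-fold, 5.74-fold and 5.77-fold enrichment, and 83.8% of all regions were as strong or stronger. The strongest region of the window, from 81384174 to 81384367, held 9.36, 9.54 and 5.01 (mean 7.97 ± 2.57). It lay 11.9 kb from Nfic but 0.164 kb from Dohh, which encodes an enzyme of hypusine synthesis, and from the long noncoding RNA gene Gm48551, and it overlapped the Dohh start window printed above. The third, from 81350284 to 81350546, held 5.78, 4.00 and 4.06 normalized tags, lay 45.8 kb from Nfic inside Hmg20b and overlapped start windows of that gene. Of the regions of all 3 libraries, that inside the gene was the nearest to the RefSeq start of Nfic at 81427173, at 25.6 kb. A region of IP libraries 2 and 3 alone, with 4.92 and 5.25 normalized tags, lay nearer, at 8.425 kb.

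**Figure D3:**
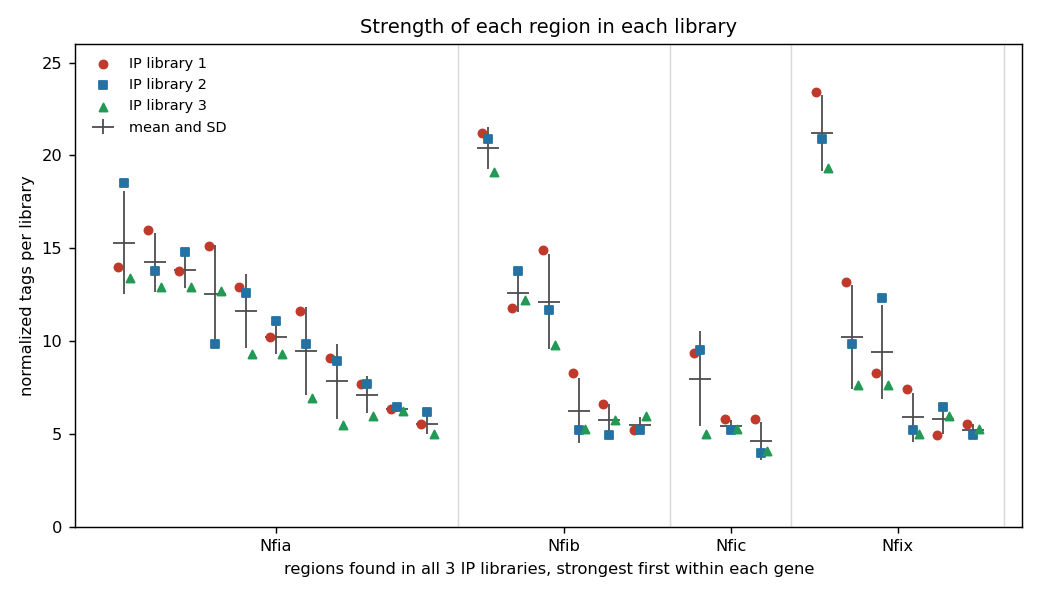
Normalized tags in IP libraries 1, 2 and 3 (coloured symbols) with mean and SD (grey bars, n = 3) for each of the 26 regions found in all 3 IP libraries, grouped by gene and ordered by mean. The strongest regions of Nfix (21.2) and Nfib (20.4) overlap each other, lie above every Nfia region, and all Nfic regions lie below 10.

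Across the genes, the strongest regions ran in the order Nfix (21.2 ± 2.07), Nfib (20.4 ± 1.14), Nfia (15.3 ± 2.79) and Nfic (7.97 ± 2.57 normalized tags, SD, n = 3). The values of Nfix and Nfib overlap. Those of Nfib lie above those of Nfia, with 19.1 as the lowest value of Nfib and 18.5 as the highest of Nfia, and those of Nfia lie above those of Nfic. The values of all genes come from the same 3 libraries, so they are paired by library and are not independent groups. Even an unpaired exact permutation test with 3 values each cannot give a p below 0.1. The strongest regions were also picked for their values, so the order is given without a test. Without the regions that lie nearer to another gene, the strongest of Nfic was 5.42 ± 0.312.

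**Figure D4:**
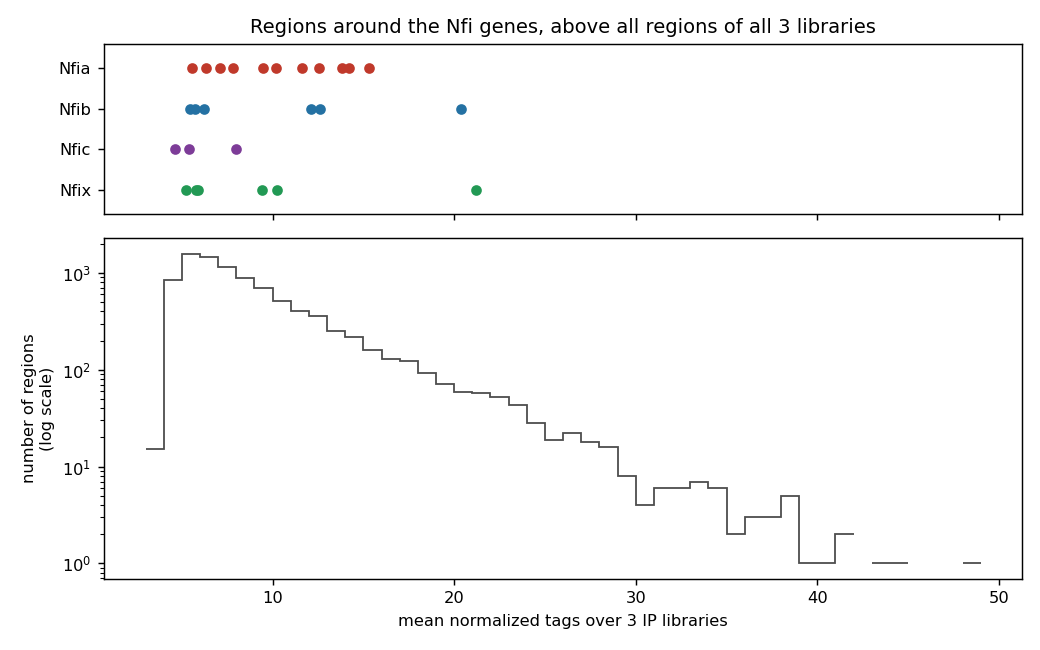
Mean normalized tags over the 3 IP libraries (horizontal axis) of the 26 Nfi regions, 1 row of points per gene, above the distribution of all 9333 regions of all 3 libraries (vertical axis, number of regions per step of 1 normalized tag, log scale). The Nfi regions lie between 4.61 and 21.2 normalized tags, and the strongest regions of the genome reach beyond 40.

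Summed over all peaks of the window, Nfia had the most signal, with 207, 175 and 137 normalized tags in IP libraries 1, 2 and 3 (mean 173 ± 35.3). Nfib had 130, 126 and 75.7 (mean 111 ± 30.3), Nfix 110, 109 and 79.5 (mean 99.6 ± 17.4) and Nfic 31.7, 34.8 and 23.4 (mean 29.9 ± 5.88). IP library 3 was the lowest for all 4 genes. Over all its peaks it also had the lowest median, with 5.25 normalized tags against 6.06 in IP library 1 and 6.16 in IP library 2. Peaks were called separately in each library, and the sums move with how many were called. For Nfia, 25, 20 and 18 peaks covered 3800, 3040 and 2844 bp, with means of 8.29, 8.77 and 7.61 normalized tags per peak. For Nfib, 15, 14 and 9 peaks covered 2280, 2128 and 1422 bp, with means of 8.66, 9.01 and 8.41 per peak. The 15, 15 and 12 peaks of Nfix covered 2280, 2280 and 1896 bp and averaged 7.34, 7.28 and 6.62. The 5, 6 and 5 peaks of Nfic covered 760, 912 and 790 bp and averaged 6.33, 5.80 and 4.68. Nfib and Nfix overlapped in their sums, while Nfia was above and Nfic below both in each library.

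By the distance over log2 sums of the 3 libraries and log2 window length, the protein-coding genes nearest to Nfia were Rora (distance 0.415), a nuclear receptor gene, Zbtb20 (0.528), a transcription factor gene of astrocyte development, and Ntrk2 (0.654), the receptor of BDNF. Their windows held 14, 11 and 11 regions of all 3 libraries. Nearest to Nfib were Nhsl1 (0.265), Farp1 (0.305) and Sash1 (0.378), with 5, 8 and 7 regions, and nearest to Nfix were Ptn (0.138), which encodes the growth factor pleiotrophin, Sfxn5 (0.264) and Mark3 (0.298), with 10, 5 and 6. Nek4, Adgrg3 and Myo19 were nearest to Nfic, at 0.108 to 0.142, each with 3 regions. Distances rest on 3 libraries and 1 length per gene and are descriptive.

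The nearest region outside the 50 kb limit of Nfia, of 5.77 ± 1.14 normalized tags, lay 101 kb below it. Nfia was still the nearest protein-coding gene of that region. Above Nfic, the nearest region outside the limit lay 64.9 kb away inside Ncln and held 8.19 ± 1.70, and below Nfic one of 8.36 ± 1.67 lay 75.4 kb away, 0.268 kb from Cactin. The nearest outside Nfib and Nfix lay 198 kb and 179 kb away. Outside the genes but within the limit, the furthest regions were the Hmg20b region at 45.8 kb from Nfic and the second Gm11266 region at 26.8 kb from Nfib. For Nfix it was the region near Dand5, at 9.95 kb.

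A list of 24 regulators of the switch to gliogenesis holds SOX, HES, ID and Notch genes among others. Of these 24, 18 (75.0%) had a region of all 3 libraries within 50 kb, against 46.6% of protein-coding genes. The 6 without one were Smad4, Nr2f2, Rbpj, Dnmt1, Il6st and Lifr. The median of the list was 1 region and that of all protein-coding genes 0. The strongest were Hes5, a Notch effector, with 30.8, 25.9 and 21.5 normalized tags (mean 26.1 ± 4.65), and Sox8, a SOXE factor of glia, with 24.5, 26.5 and 19.1 (mean 23.4 ± 3.83). Zfp36l1, an RNA-binding protein gene, followed with 19.3, 26.5 and 21.5 at 45.0 kb from the gene, and Id4, an inhibitor of bHLH factors, with 26.7, 21.2 and 18.6 at 33.3 kb. All 4 means lie above those of the strongest Nfi regions, and the values of each overlap those of Nfix.

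Of 14 genes reported to be regulated by NFI proteins, 11 (78.6%) had such a region, with a median of 2 regions, again against 46.6% of protein-coding genes. The strongest was at Mmd2, which SOX9 and NFIA induce together in the spinal cord, with 36.3, 33.5 and 23.4 normalized tags inside the gene (mean 31.1 ± 6.79). Sox9, which is also on the first list, had 21.2, 21.9 and 22.7, Cdh2, the N-cadherin gene, 25.9, 14.8 and 19.8, and Fabp7, a fatty acid binding protein gene of radial glia, 24.8, 20.3 and 11.5. The genes with none were Ezh2, of Polycomb repressive complex 2, Gabra6, a GABA receptor subunit of cerebellar granule cells, and Efnb1, an ephrin. A region of all 3 libraries lay within 50 kb of 12 of 13 astrocyte and 6 of 10 neuron marker genes, against 46.6% of protein-coding genes. The same held for 3 of 9 oligodendrocyte lineage, 3 of 10 microglia and 5 of 9 endothelial marker genes. Counting only genes that were the nearest protein-coding gene to a region, these were 12 astrocyte, 3 neuron, 1 oligodendrocyte lineage, 1 microglia and 4 endothelial marker genes, against 22.9% of protein-coding genes. The windows of the marker genes ran from 101 kb at Cldn5 to 613 kb at Syt1, and the counts were not matched for length. ChIP-seq does not measure the expression of these genes, and the counts do not show which cells the tissue held.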

How the data were processed

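The members and lists were chosen with earlier results of these data known. Per the submitters' processing notes, reads were processed with Bowtie 1.0.0 and HOMER 4.7 on mm10. Peaks were called by the authors in each IP library with the input as control, per the file headers, at 4-fold over input and over the local 10 kb, a Poisson p-value of 0.0001 and a false discovery rate of 0.001. The libraries held 36330529, 32492927 and 41875666 tags, so that 1 tag is 0.275, 0.308 and 0.239 normalized tags. The tag thresholds for the false discovery rate, per the file headers, were 14, 13 and 16 tags. A peak of IP library 3 near Nfix, of 3.58 normalized tags, comes to 15 tags and lies below its threshold. Normalized tags are the authors' signal per peak, and total tags were deposited as a count for IP library 2. Folds are the authors' ratio, the share of tags placed as the peak centre predicts is their fraction, and the peak score was deposited with a cap of 1 or 2 tags per bp.

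Peaks overlapping by at least 1 bp were merged, and where a region held several peaks of one library the highest was used. Spans of genes were read from the RefSeq table of GRCm38.p6 (chromosomes 1 to 19 and X), and start sequences from RefSeq, which matched Nfia, Nfic and Nfix. The spans of Nfia, Nfic and Nfix begin upstream of every start listed for them, so further starts may be missing. Merging and window counts were tested on simulated data. Tag numbers behind intervals were computed from normalized tags and library totals. All regions of all 3 libraries around the Nfi genes are described or summarised, with the 4 strongest genes per list and the 3 nearest genes by distance. No p-values were computed, since there is 1 IP group and 1 input. Alternatives changed the overlap, the library number, the thresholds, the window and the competing genes, and left out each library. Scripts ran under Python 3.11.15 with scipy 1.17.1, pandas 2.3.3 and numpy 2.4.6, and figures were drawn with matplotlib 3.10.9.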

Additional observations from a re-analysis of the deposited data

How the results depend on the processing

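All 4 Nfi genes kept at least 1 region under each alternative, except that Nfic had 0 with only the stronger part of each library's peaks. That setting left 3 regions each at Nfib and Nfix and sums of 17.6 normalized tags at Nfic and 65.9 at Nfix. With regions of at least 2 libraries the counts were 18 for Nfia, 12 for Nfib, 6 for Nfic and 11 for Nfix. At 8-fold or more over the input they were 7 for Nfia, 1 for Nfic and 3 for Nfix, with sums of 10.7 at Nfic and 73.8 at Nfix. In the gene span alone, Nfic had 1 region and sums were 65.6 at Nfib, 9.70 at Nfic and 78.8 at Nfix. With 10 kb on each side Nfic had 1 region, and sums were 77.5 at Nfib and 13.1 at Nfic. With 100 kb Nfic had 5 regions and a sum of 52.5. Counted only where it was the nearest protein-coding gene, Nfic had 1 region and a sum of 13.1, and Nfix a sum of 78.8. The other 108 of 134 values stayed within 1.5 times the count or 1 SD. The value of the strongest region of each gene moved by less than 1 SD wherever one could be had. For Nfic this rests on a wide SD of 2.57, and the region itself changed. Its value fell from 7.97 to 5.42 in the gene span alone, with 10 kb on each side and as nearest gene. With 100 kb another region, of 8.36, was the strongest. Leaving out 1 library gave 11 to 16 regions for Nfia, 7 to 9 for Nfib, 4 for Nfic and 6 to 9 for Nfix. Sums do not depend on overlap or library number, so these were not run for them. The median peak of a library held 20 to 22 tags, which limits how well weak peaks are found in each library. No paired analysis of IP against input was possible because the input is a single library and there is no second group of numbered samples.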

Other observations

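Among the 60 regions that were not found in all 3 libraries, 39 held a peak of 1 library, with 3.58 to 8.81 normalized tags. The highest of these, inside Nfia from 97761389 to 97761541, was in IP library 1 alone. Around Nfix, 14 of 25 regions rested on 1 library, around Nfia 16 of 34, around Nfib 8 of 20 and around Nfic 1 of 7. The share of regions of 1 library over the whole genome is not given here. Whether these counts differ from that share was therefore not tested. A region of IP libraries 1 and 3, with 7.71 and 6.45 normalized tags, lay 16.8 kb below Nfix inside Trmt1 and was enriched 46.6-fold on average, with the input at its floor of 0.5 tags in both comparisons. The authors' fraction of tags placed as the peak centre predicts had a median of 0.771 over the 26 regions of all 3 libraries and was 0.929, 0.917 and 0.863 at the strongest Nfix region.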
